A study of Mus musculus with 4 samples.

Results

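The keratins and cornified-envelope genes of the mouse stomach were examined in 2 strains. Genes were taken where a probe had a single gene symbol that is Krt followed by a digit, that begins with Sprr, Lce, Dsg or Dsc, or that is Ivl, Lor, Flg, Evpl, Ppl, Sbsn, Krtdap, Trp63, Pkp1, Tgm1 or Tgm3. Of 13840 genes with a single-symbol probe, 74 matched, each through 1 probe. Of these, 56 had a value on at least 2 arrays. The 4 keratins of simple epithelium (Krt8, Krt18, Krt19 and Krt20) are given apart. The other 52 were taken by name as genes of stratified or cornified epithelium. They include genes that are not confined to it, such as Krt7 and Dsg2, and keratins of hair and nail. Among the 52, 49 had a value on all 4 arrays and were compared between strains, and 3 had a value on 2 arrays.

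Total RNA of the whole stomach was hybridised to single-colour arrays. The congenic group was B6.CAST-17, homozygous males whose strain name gives a CAST segment of chromosome 17 on the B6 background, and the control group was wild-type male C57BL/6J mice. All ate chow and had been without food for 4 h, and their age is not given in the sources used here. Each strain had 2 arrays, and each array held equal amounts of RNA from 3 animals, so 6 animals a strain stand behind the values and the spread between single animals is not measured. None of the 74 genes lies on chromosome 17. Levels are log2 signals, differences are congenic minus wild type on that scale ± SE with 2 pools a strain, and adjusted p-values come from limma over 13475 probes. In whole-stomach RNA, fewer squamous cells and less RNA per cell cannot be told apart.

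The upper part of the mouse stomach, the forestomach, is lined by a stratified squamous epithelium, whereas the glandular part below it has a simple columnar epithelium. Squamous cells arise in a basal layer that makes the keratin pair Krt5 and Krt14, and switch to other keratin pairs, such as Krt4 and Krt13 in mucosa, as they move upwards. In the outer layers transglutaminases cross-link small proline-rich proteins, late cornified envelope proteins, loricrin and involucrin into an insoluble envelope, and desmosomes, built from desmogleins, desmocollins and plakophilins, hold the cells together. Of a list of 69 other genes of squamous epithelium, 47 were measured on all arrays, and of 23 genes of the gastric glands 16 were. Of all 33012 probes 13475 were, as were 6 of 12 keratins of hair and nail and 15 of 21 exocrine pancreas genes. The rule for blanks is not known, so these counts do not show which linings a pool held.

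None of the 49 genes passed an adjusted p of 0.05 in limma, while 64 of all 13475 probes did (0.475%, of which 0.289% higher and 0.186% lower in the congenic pools). At an unadjusted p under 0.05 there were 10 of 49 (20.4%), 4 higher and 6 lower in the congenic pools, against 15.8% of all probes (7.12% higher and 8.66% lower). The 4 higher were Krt23, Sprr2i, Sprr2e and Sprr3, and the 6 lower were Tgm3, Dsg2, Sprr1b, Sprr1a, Lce1d and Krt5. The median difference over the 49 was 0.021, against -0.0020 over all probes, with 26 differences above 0 and 23 below. Both congenic pools lay above both wild-type pools for 12 genes, and below for 11, which is 24.5% and 22.4% of the 49 against 23.4% and 26.1% of all probes. These shares lie close to those of all probes and are no result about these genes as a whole. The differences ran from -0.50 for Tgm3 to 0.86 for Sprr2e, and 34 of 49 were within 0.25 log2 of 0 (69.4%, against 69.8% of all probes). The unadjusted 95% interval of the difference lay within 1 log2 of 0 on both sides for 45 genes, and within 0.5 log2 for 31. Its half-width had a median of 0.241 and reached 0.956 for Sbsn.

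**Figure D1:**
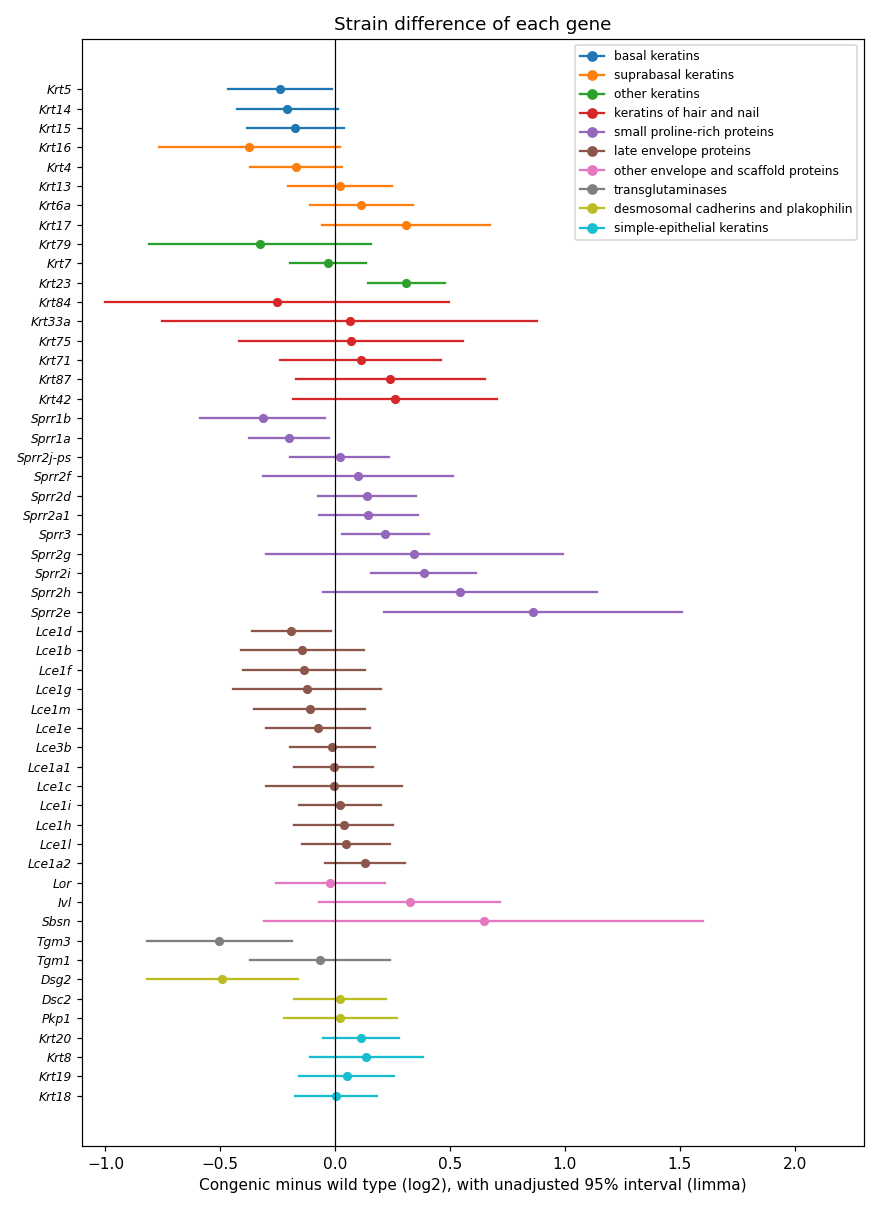
Difference between congenic and wild-type pools (log2, horizontal axis) for each of the 49 genes and the 4 simple-epithelial keratins, with the unadjusted 95% interval from limma as a line, coloured by role. Points lie on both sides of 0, from -0.50 for Tgm3 to 0.86 for Sprr2e, and none passed after adjustment.

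The small proline-rich (Sprr) genes sit together on chromosome 3 and encode envelope precursors, and their differences lay on both sides of 0. All 8 Sprr2 probes and Sprr3 had a positive difference, as did 49.6% of all probes. Sprr1a and Sprr1b had a negative one, yet none of the 11 passed. The windows of 250 bases before the annotated starts are shown for the Sprr genes whose unadjusted p was under 0.05, on both sides of 0, because these neighbours differ in sign. They come from RefSeq on GRCm38.p6 and run 5′ to 3′ on the gene's own strand. Sprr2e is chr3:92351893-92352142 and Sprr2i chr3:92407741-92407990, both on the plus strand. Sprr3 is chr3:92458721-92458970, Sprr1b chr3:92438780-92439029 and Sprr1a chr3:92485882-92486131, all on the minus strand. Capitals mark TGANTCA (the letters bound by AP-1 factors), TATAAA (the TATA box) and ATTTGCAT (the octamer), searched on both strands.
Sprr2e: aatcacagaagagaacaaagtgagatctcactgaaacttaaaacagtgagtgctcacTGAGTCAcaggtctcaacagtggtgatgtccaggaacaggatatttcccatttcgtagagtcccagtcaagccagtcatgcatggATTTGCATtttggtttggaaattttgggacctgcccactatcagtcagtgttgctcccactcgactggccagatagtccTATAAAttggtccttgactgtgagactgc
Sprr2i: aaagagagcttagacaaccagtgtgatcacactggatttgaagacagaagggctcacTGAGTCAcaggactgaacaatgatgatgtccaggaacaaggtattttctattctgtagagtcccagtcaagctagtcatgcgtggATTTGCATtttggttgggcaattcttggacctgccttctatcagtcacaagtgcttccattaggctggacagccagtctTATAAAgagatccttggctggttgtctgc
Sprr3: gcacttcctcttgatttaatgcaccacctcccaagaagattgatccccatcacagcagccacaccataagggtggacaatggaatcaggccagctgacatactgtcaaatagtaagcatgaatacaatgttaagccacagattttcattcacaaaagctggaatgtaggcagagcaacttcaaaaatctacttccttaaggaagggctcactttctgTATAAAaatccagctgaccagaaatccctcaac
Sprr1b: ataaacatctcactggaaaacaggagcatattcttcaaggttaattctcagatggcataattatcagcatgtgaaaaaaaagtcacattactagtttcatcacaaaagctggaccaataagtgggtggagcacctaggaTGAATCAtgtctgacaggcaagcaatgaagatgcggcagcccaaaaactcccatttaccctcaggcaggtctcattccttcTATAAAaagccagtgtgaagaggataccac
Sprr1a: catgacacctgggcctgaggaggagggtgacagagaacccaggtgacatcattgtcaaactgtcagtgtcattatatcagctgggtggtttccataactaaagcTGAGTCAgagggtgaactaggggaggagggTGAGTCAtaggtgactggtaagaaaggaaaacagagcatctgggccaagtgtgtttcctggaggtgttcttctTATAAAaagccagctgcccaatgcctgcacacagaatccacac

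Windows were found for 36 of the 49 genes (38 windows, since Krt13 and Tgm1 have 2 starts each). TGANTCA was present in 12 of 38 windows (31.6%), in 5 of 6 Sprr2 windows and in both Sprr1 windows, against 6.75% of all 32851 promoter windows. No late cornified envelope window of 12 held it, and Sprr3 held it nowhere in its window. Sprr1b and Sbsn held it only as TGAATCA, which is neither TGACTCA nor TGAGTCA. In Sprr2e and Sprr2i its letters were TGAGTCA, beginning 193 bases before the start, while Sprr1a had 2 copies, beginning 146 and 116 bases before the start, and Sprr1b had TGAATCA beginning 111 bases before it. ATTTGCAT stood in 5 of 6 Sprr2 windows and in no other window of these genes, against 1.6% of all windows. TATAAA stood in 8 of 9 Sprr windows, against 12.4% of all. Sprr2a1 was the Sprr2 window without any of the 3. By global alignment of the 250 bases, Sprr2d and Sprr2e were 89.3% identical and Sprr2e and Sprr2i 77.2%, while Sprr1a was 47.7% identical to Sprr2e and 55.9% to Sprr1b. Sprr2a1 was only 49.3% (Sprr2h) to 52.8% (Sprr2d) identical to the other Sprr2 windows, which shared at least 60.1% with each other. Whether its annotated start is the one used was not tested, so the missing letters describe this window only. A match of letters is a description and not a binding site, and the motifs were chosen after the windows were read.

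Sprr2e had the largest difference of the 49. It read 18.26 and 18.73 in the congenic pools and 18.01 and 17.26 in the wild-type pools. Both congenic values were above both wild-type values, but the wild-type pools were 0.75 apart. The difference was 0.86 ± 0.26, a 1.81-fold higher signal (95% interval 0.21 to 1.51, limma adjusted p = 0.241). It ran from 0.486 without wild-type pool 2 to 1.23 without wild-type pool 1. Sprr2i read 15.56 and 15.38 in the congenic pools against 15.14 and 15.03 in wild type. Its pools did not overlap, and the difference was 0.39 ± 0.093 (1.31-fold, limma adjusted p = 0.183). Sprr2h read 15.55 and 16.24 in the congenic pools against 15.56 and 15.15. Congenic pool 1 lay inside the wild-type range, so only congenic pool 2 stood above it, and the difference was 0.54 ± 0.24 (limma adjusted p = 0.349).

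The remaining Sprr2 probes had smaller differences or larger errors. Sprr2a1 read 20.85 and 20.93 in the congenic pools and 20.75 in both wild-type pools, a difference of 0.14 ± 0.088. Sprr2d read 15.20 and 15.03 against 14.95 and 15.01, a difference of 0.14 ± 0.088. Sprr2g read 10.11 and 10.30 against 9.81 and 9.91, a difference of 0.35 ± 0.26. The pools of these 3 did not overlap, by as little as 0.024 log2 for Sprr2d. With Sprr2e and Sprr2i, both congenic pools were higher for 5 of the 8 Sprr2 probes (62.5%, against 23.4% of all probes). Sprr2g was dim, below the array medians of 12.819 to 12.824. Without Sprr2g and Sprr2j-ps both congenic pools were higher for 4 of 6 (66.7%). Sprr2f (0.099 ± 0.17) and Sprr2j-ps (0.019 ± 0.087), a pseudogene by its name, overlapped. The mean over the 8 Sprr2 probes was 15.08 and 15.26 in the congenic pools and 14.92 and 14.78 in wild type, and the median difference was 0.245. All 8 differences stayed positive when congenic pool 1 or either wild-type pool was left out, and 7 of 8 without congenic pool 2. Sprr2 genes are a family of similar copies, and whether their probes share signal was not tested, so these 8 values may not be independent and each is uncertain.

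Sprr3, an envelope precursor of internal stratified epithelia such as the oesophagus, read 18.94 and 18.93 in the congenic pools against 18.77 and 18.67. The congenic pools were above the wild-type pools by 0.22 ± 0.078 (limma adjusted p = 0.277). Sprr1a, an envelope precursor induced by differentiation and stress, read 17.72 and 17.77 against 17.97 and 17.93. Its difference was -0.20 ± 0.071 (limma adjusted p = 0.274), with both congenic pools below both wild-type pools. Sprr1b read 12.56 and 12.69 against 12.98 and 12.90, a difference of -0.32 ± 0.11 (limma adjusted p = 0.273). Both Sprr1 differences kept their sign when any single pool was left out. Along chromosome 3 the order of the measured genes was Lor, the Sprr2 genes, then Sprr1b, Sprr3, Sprr1a and Ivl, so the sign alternated over these 4 neighbours.

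**Figure D2:**
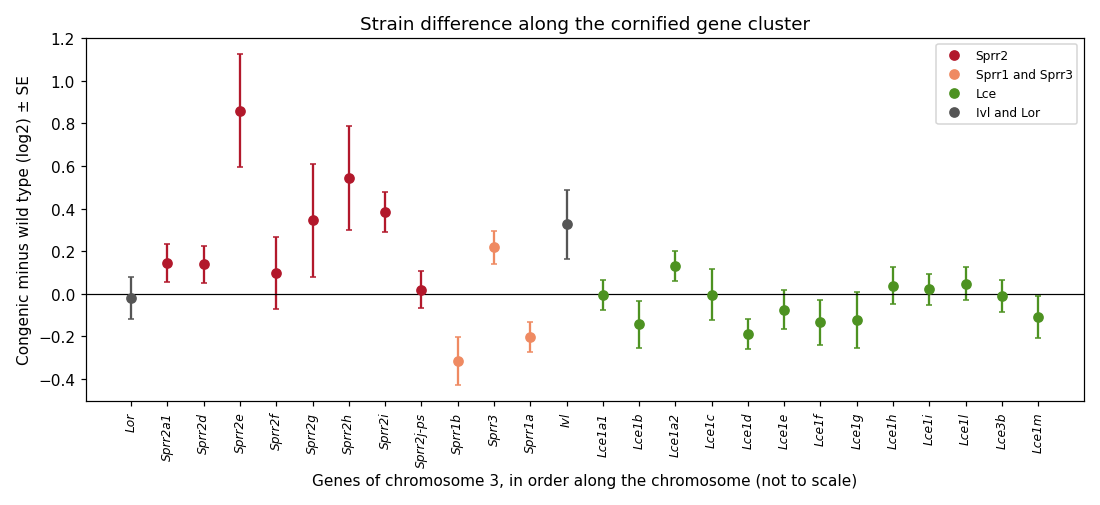
Difference between congenic and wild-type pools (log2, vertical axis, ± SE from limma, 2 pools a strain) for the 26 genes of chromosome 3 in their order along it (horizontal axis, not to scale). The 8 Sprr2 genes lie above 0, Sprr1a and Sprr1b below, and the 13 Lce genes between -0.19 and 0.13.

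The late cornified envelope (Lce) genes, which encode small cysteine-rich proteins added last to the envelope, showed little difference between strains. All 13 were measured on every array and all 13 differences were within 0.25 log2 of 0, with a median of -0.012. Lce1d read 16.39 and 16.45 in the congenic pools against 16.63 and 16.59 in wild type. Its pools did not overlap, with a difference of -0.19 ± 0.070 (limma adjusted p = 0.287). Lce1a2 read 17.35 in both congenic pools against 17.25 and 17.18, a difference of 0.13 ± 0.071 (limma adjusted p = 0.423), and its pools were also apart. The pools of the other 11 overlapped (2 of 13 apart, against 49.4% of all probes). For Lce1a1, which read 15.87, 15.88, 15.91 and 15.85 in congenic pools 1 and 2 and wild-type pools 1 and 2, the interval ran from -0.18 to 0.17. Whether probes of the Lce1 genes, also a family of similar copies, share signal was not tested.

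Loricrin, the main protein of the epidermal envelope, is encoded by Lor, which read 20.50 and 20.32 in the congenic pools and 20.43 in both wild-type pools. The wild-type values lay between the congenic ones, and the difference was -0.021 ± 0.097 (95% interval -0.26 to 0.22). Ivl encodes involucrin, an early scaffold of the envelope, and read 12.03 and 11.75 against 11.61 and 11.52. Its congenic pools were both higher, by 0.33 ± 0.16 (limma adjusted p = 0.385), which was 0.184 without congenic pool 1. Sbsn encodes suprabasin, a secreted protein of suprabasal cells, and read 17.49 and 17.45 in the congenic pools but 16.16 in wild-type pool 1 and 17.48 in wild-type pool 2. Wild-type pool 1 stood apart from the other 3 arrays, and the difference of 0.65 ± 0.39 (limma adjusted p = 0.460) rests on it. Without wild-type pool 1 the Sbsn difference was -0.016. Without wild-type pool 2 it was 1.31 and passed (limma adjusted p = 0.001987), the only gene of the 49 to pass when a pool was left out. No probe with the single symbol Flg, Evpl, Ppl or Krtdap was found in the annotation used here.

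Transglutaminases join these proteins together. Tgm3, the enzyme activated by cleavage in differentiated cells, read 11.82 and 11.71 in the congenic pools against 12.26 and 12.29 in wild type. The congenic pools were both lower and the pools of a strain agreed to within 0.11, and the difference was -0.50 ± 0.13, a 1.42-fold higher signal in wild type (95% interval -0.82 to -0.19, limma adjusted p = 0.191). It lay between -0.559 and -0.449 when single pools were left out. The Tgm3 probe was in the dimmer part of the probes, so the check without dim probes did not cover it. Tgm1, the membrane-bound transglutaminase of keratinocytes, read 13.11 and 13.10 against 13.03 and 13.31. Its congenic values lay inside the wild-type range (-0.065 ± 0.12, limma adjusted p = 0.824).

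The basal keratins all had negative differences of less than 0.25 log2. Krt5, the basal type II keratin, read 17.82 and 17.97 in the congenic pools against 18.05 and 18.21 in wild type. The difference was -0.24 ± 0.093 (95% interval -0.47 to -0.01, limma adjusted p = 0.300). Krt14, its type I partner, read 16.94 and 17.04 against 17.29 and 17.11, a difference of -0.21 ± 0.090 (limma adjusted p = 0.334), which was -0.115 without wild-type pool 1. Krt15, a basal keratin of stratified epithelia, read 13.66 and 13.60 against 13.82 and 13.78, a difference of -0.17 ± 0.087 (limma adjusted p = 0.390). For each of the 3, both congenic pools lay below both wild-type pools, as for 26.1% of all probes, and none passed. Their mean was 16.14 and 16.20 in the congenic pools against 16.39 and 16.37 in wild type, and all 3 differences stayed negative when any single pool was left out. Trp63, the transcription factor of the basal layer, had no value on any array, and a blank is not read here as an absent transcript.

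The keratins of the upper layers did not share a direction. Krt4 and Krt13 are the pair of differentiated mucosal epithelium. Krt4 read 18.53 and 18.63 in the congenic pools against 18.71 and 18.79, with a difference of -0.17 ± 0.082 (limma adjusted p = 0.378) and no overlap. Krt13 read 18.77 and 18.90 against 18.89 and 18.74, with a difference of 0.023 ± 0.092 (95% interval -0.20 to 0.25) and overlapping pools. So the members of the pair differed in their estimates, but whether they differed from each other was not tested. Krt16 and Krt17 are type I keratins induced in stressed or proliferating epithelium, and Krt6a is a type II partner of theirs. Krt16 read 11.71 and 11.43 against 11.89 and 12.00, lower in both congenic pools, with a difference of -0.37 ± 0.16 (limma adjusted p = 0.332). The Krt16 difference was -0.234 without congenic pool 2 and -0.512 without congenic pool 1. Krt17 read 13.46 and 13.42 against 12.93 and 13.33, higher in both congenic pools by 0.31 ± 0.15 (limma adjusted p = 0.378), and wild-type pool 1 was the lowest by 0.41. Without that pool the Krt17 difference was 0.105, and without wild-type pool 2 it was 0.512. Krt6a read 13.60 and 13.67 against 13.57 and 13.48, higher in both congenic pools by 0.11 ± 0.092. Krt12, a keratin of the cornea, had a value of 9.80 in congenic pool 1 and 9.08 in wild-type pool 2 and was blank elsewhere. Krt2, an epidermal keratin, had a value on wild-type pool 1 only.

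**Figure D3:**
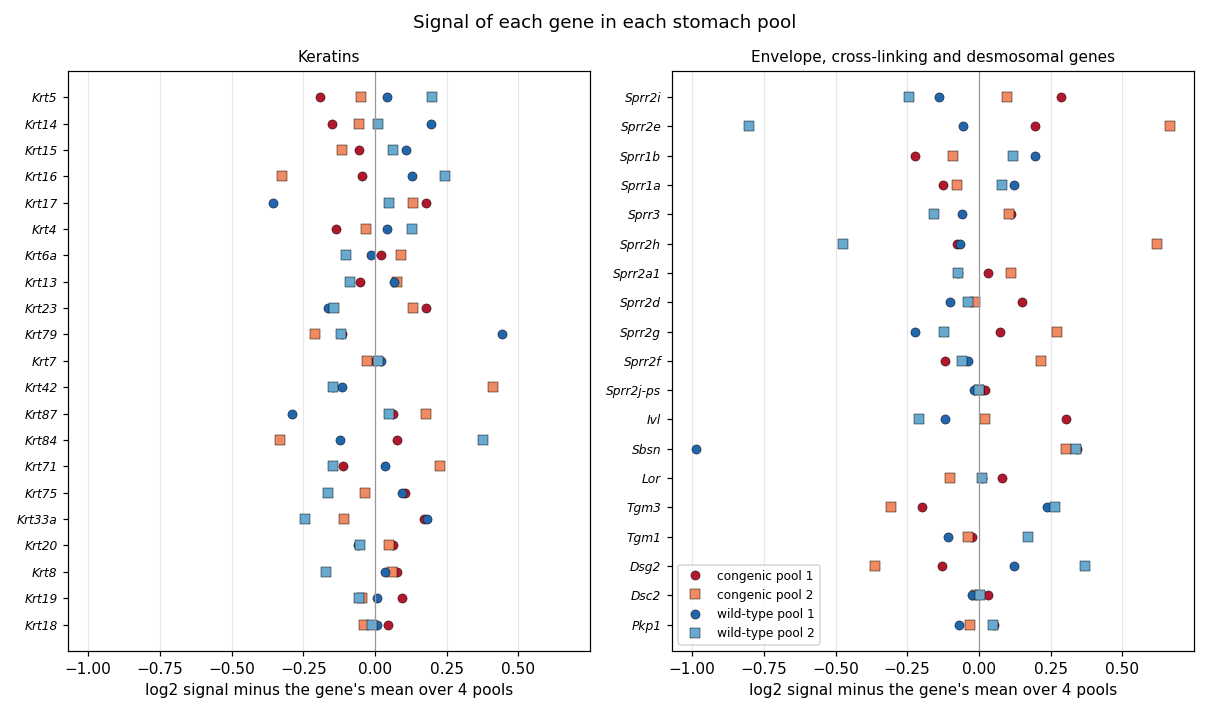
Log2 signal of each gene in each of the 4 pools, given as the distance from that gene's mean over the pools (horizontal axis), with keratins on the left and envelope, cross-linking and desmosomal genes on the right. Congenic pools are red and orange and wild-type pools dark and light blue. The blue points of Krt5, Krt14, Krt15, Sprr1a, Sprr1b and Tgm3 lie to the right of the red and orange ones, those of Krt23, Sprr2e and Sprr2i to the left, and Sbsn has wild-type pool 1 far from the other pools.

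Krt23 had the smallest p of the 49 genes. This type I keratin read 17.48 and 17.44 in the congenic pools against 17.14 and 17.16 in wild type. Pools of a strain were within 0.05 of each other, and the congenic pools were higher by 0.31 ± 0.069, a 1.24-fold signal (95% interval 0.14 to 0.48, unadjusted p = 0.00409 and adjusted p = 0.177 in limma). The difference lay between 0.288 and 0.331 when single pools were left out. Krt7, a keratin of ducts and glands, read 17.32 and 17.29 against 17.34 and 17.33, and its difference of -0.030 ± 0.068 had an interval of -0.20 to 0.14. Krt79 read 12.38 and 12.28 against 12.94 and 12.38. Wild-type pool 1 was the highest and the congenic pools spanned wild-type pool 2 (-0.33 ± 0.20, limma adjusted p = 0.463), and the difference was -0.0452 without wild-type pool 1 and -0.605 without wild-type pool 2. Krt88 had values of 9.52 in congenic pool 1 and 9.28 in wild-type pool 2 only, and Krt90 and Krt222 had none.

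Keratins of hair and nail matched the gene rule by name, although the forestomach has no hair. Of 12, 6 had a value on all arrays, Krt82 had a value on wild-type pool 1 only, and 5 were blank on every array, as were 25.4% of all single-symbol probes. The 6 measured differences ran from -0.25 for Krt84 to 0.26 for Krt42, and none passed. Krt42 read 13.72 and 14.28 in the congenic pools against 13.76 and 13.72, so congenic pool 2 alone was high, and the difference of 0.26 ± 0.18 became -0.017 without that pool. Krt87 read 11.86 and 11.98 against 11.51 and 11.85, a difference of 0.24 ± 0.17 (limma adjusted p = 0.518) that was 0.0728 without wild-type pool 1 and 0.409 without wild-type pool 2. For Krt71, Krt75, Krt33a and Krt84 the pools overlapped.

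Among desmosomal genes, Dsg2, the desmoglein found in simple as well as stratified epithelia, read 13.09 and 12.86 in the congenic pools against 13.34 and 13.59 in wild type. Both congenic pools were lower, with a difference of -0.49 ± 0.13, a 1.41-fold higher signal in wild type (95% interval -0.82 to -0.16, limma adjusted p = 0.208). Dsc2, a desmocollin, read 14.044, 14.005, 13.990 and 14.017 in congenic pools 1 and 2 and wild-type pools 1 and 2. These 4 values overlapped, and the difference was 0.021 ± 0.081 (95% interval -0.18 to 0.22). Pkp1, the plakophilin of suprabasal desmosomes, read 13.35 and 13.26 against 13.22 and 13.34, again with overlap (0.022 ± 0.10). Dsg3, the desmoglein of basal squamous cells, had values in the congenic pools only, 10.72 and 10.81, and both wild-type pools were blank, so no difference is given. Dsc1, Dsc3, Dsg1c and Dsg4 had no value on any array. Dscam and Dscc1 matched by letters only, are no desmocollins, and were also blank.

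The 4 keratins of simple epithelium, the lining of the glandular stomach, had small positive differences. Krt8, the type II keratin of simple epithelia, read 20.24 and 20.22 in the congenic pools against 20.20 and 19.99, a difference of 0.14 ± 0.10 (limma adjusted p = 0.540). It was 0.0337 without wild-type pool 2, the lowest value, and 0.239 without wild-type pool 1. Krt18, its partner, read 17.94 and 17.86 against 17.91 and 17.89, a difference of 0.0041 ± 0.073 (95% interval -0.17 to 0.18). Krt20, found in gastric pit cells, read 17.59 and 17.57 against 17.46 and 17.47, a difference of 0.11 ± 0.068 (limma adjusted p = 0.457), and its pools were apart. Krt19 differed by 0.050 ± 0.084, with overlap. The median of the 4 was 0.082, and 2 of the 4 differences were negative without congenic pool 1.

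Other genes of squamous epithelium, from the list of 69, held no gene that passed in limma (0 of 47). That list was chosen with earlier results of these data known, so its shares beside all probes are a description and no test. At an unadjusted p under 0.05 there were 11 (23.4%, against 15.8% of all probes), 2 higher and 9 lower, and the median difference was -0.10. Pools were apart in 33 of the 47 (70.2%, against 49.4% of all probes). In 10 the congenic pools were higher (21.3%, against 23.4%) and in 23 lower (48.9%, against 26.1%). Lamb3, a chain of the basement membrane laminin, read 15.74 and 15.81 in the congenic pools against 15.47 and 15.41 (0.33 ± 0.073, limma adjusted p = 0.173). Klf4, a transcription factor of barrier formation, read 15.59 and 15.55 against 15.87 and 16.04 (-0.38 ± 0.085, limma adjusted p = 0.177). Klf5, a factor of proliferating epithelium, differed by -0.29 ± 0.070, and Ly6g6c, a gene of chromosome 17, by -0.26 ± 0.071. The list holds genes, such as Klf4 and Klf5, that the glandular lining also expresses. S100a14, a calcium-binding protein of epithelia, read 16.35 in wild-type pool 1 against 16.87 to 17.04 elsewhere. Sbsn was also low on that array, but so were genes of other lists. Cblif of the gastric glands read 19.02 there against 20.14 to 20.24 elsewhere, and Pln of smooth muscle 11.60 against 12.77 to 13.45. Of the 49 genes, 11 were lowest in wild-type pool 1 (22.4%, against 21.6% of all probes).

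Some markers of other tissues differed between the same pools. Their lists were chosen with earlier results of these data known, so their shares beside all probes are a description and no test. Of 30 skeletal muscle genes, 12 were measured. After adjustment in limma, 3 passed as lower (Acta1, Myl1 and Tnnt3) and 0 as higher, against 0.186% of all probes lower. The median of the 12 was -0.785, and both congenic pools were lower for 10 of 12 (83.3%, against 26.1% of all probes). Acta1 passed under every alternative tried, but it was the only one of the 12 to pass without congenic pool 1 or without the variance trend, and Acta1 and Myl1 were the only ones without congenic pool 2 or with the replicate block. The mean level of the 12 was 12.58 and 12.62 in the congenic pools against 13.36 and 13.48 in wild type, and Acta1, skeletal actin, read 14.53 and 14.52 against 16.12 and 16.09. Skeletal muscle surrounds the squamous lining of the mouse oesophagus, which joins the forestomach. Of the 49 squamous and cornified genes, 26 had positive and 23 negative differences between the same pools, and none passed. Among the negative were the basal keratins, Sprr1a, Sprr1b, Tgm3, Krt4, Krt16 and Dsg2. Among the positive were the Sprr2 probes, Sprr3, Ivl, Krt17 and Krt23. Krt13 (0.023), Lor (-0.021) and the median of the Lce genes (-0.012) were small. Whether the amount of other tissue had a part in any of these was not tested. Of 15 exocrine pancreas genes measured, both congenic pools were higher for 13 (86.7%, against 23.4% of all probes). Both were lower for Pnliprp2 (-0.22 ± 0.11), and the pools of Clps overlapped (-0.086 ± 0.14). After adjustment in limma, 10 of the 15 passed as higher and 0 as lower, against 0.289% of all probes higher. The 10 were Cela2a, Ctrb1, Reg1, Cpa1, Cela3b, Cpb1, Amy2a5, Prss1, Prss3 and Cel. With congenic pool 1 left out 5 still passed, as did 6 when congenic pool 2 was omitted and 6 when variances did not follow the signal level. No smooth muscle gene of 11 passed in limma, where 3 had p under 0.05 before adjustment (27.3%, against 15.8% of all probes), and the median of the 11 was -0.075. No gastric gland gene of 16 passed in limma, where 4 had p under 0.05 before adjustment (25%, against 15.8%), and the median of the 16 was -0.019. Without wild-type pool 2, 1 gene of each passed, Pln and Cblif.

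**Figure D4:**
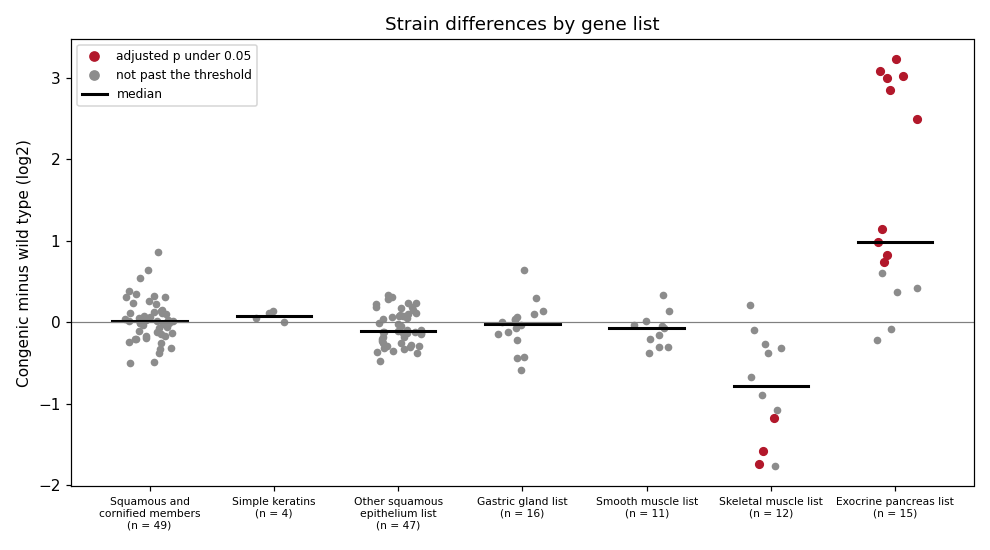
Difference between congenic and wild-type pools (log2, vertical axis) for each gene of the squamous and cornified set, the simple keratins and 5 lists. The lists were chosen with earlier results of these data known. Each point is a gene, red where the limma adjusted p was under 0.05 and grey otherwise, bars are medians, and points are spread sideways at random. The 49 squamous and cornified genes centre on 0.021 with no red point, while the skeletal muscle and exocrine pancreas lists hold 3 and 10.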

How the data were processed

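Signals were used as deposited, 1 log2 value per probe and pool. How the authors normalized them, and when they left a cell blank, is not given in the sources used here. The arrays were already on a nearly common scale, with medians from 12.819 to 12.824. Some values recur exactly between arrays, such as 21.248 for Gkn2 in all 4 pools. Others recur between genes, such as 20.1971 for Krt8 in wild-type pool 1 and Cblif in congenic pool 1. Equal readings, such as those of Lor and Sprr2a1 in both wild-type pools, are therefore not read as a measure of precision. That they are logs to base 2 is inferred from their range, and every fold rests on this. Probes were named by the platform's annotation, only where it gave 1 symbol (14411 of 33012 probes). All 74 matching genes were found in the mouse reference (GRCm38.p6), which gave gene order and promoter sequence. Members and gene lists were chosen with earlier results of these data known. The 13475 probes with values in all 4 pools entered a limma fit of strain (version 3.58.1 in R 4.3.3) with moderated variances that follow the signal level, two-sided. P-values were adjusted by Benjamini and Hochberg's method over these probes, with a threshold of 0.05. Tested on simulated data for this comparison with 13475 probes, 63% of differences of 1 log2 and 85% of those of 2 log2 were found, with 6 false among 154 calls. All 49 members are named. Full statistics were planned for the 2 of each role with the smallest p and for any at least 0.5 apart without overlap, and others were added after their values were seen. From the lists, genes that passed or up to 4 by p were to be named, and S100a14, Cblif and Pln were added after their values were seen. Same-numbered pools had a correlation of -0.064 in their deviations across probes, so the numbers were not taken to pair them. Alternatives were a block for the replicate number, quantile normalization, centring on the median, a filter on dim probes, no variance trend, each pool left out, and 1 blank per probe. P-values set the strain difference against the spread between pools of a strain, moderated with that of other probes. The spread between animals enters them only through the averages of 3 animals a pool, and the spread between single animals is not estimated. Figures were drawn with matplotlib 3.10.9.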

Additional observations from a re-analysis of the deposited data

How the results depend on the processing

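The count of 0 of the 49 genes past the threshold in limma held under the replicate block, quantile normalization, median centring, without the dimmer probes (38 genes tested), without the variance trend and with 1 blank allowed. Quantile normalization and median centring are weak checks here, because the deposited arrays were already on a nearly common scale. Leaving out single pools gave between 0 and 1, the 1 being Sbsn without wild-type pool 2. The median over the 49 lay between -0.0164 and 0.0098 when single pools were left out and between 0.0188 and 0.0205 otherwise. Over all probes, 64 passed, 35 with the replicate block, 20 without the variance trend and between 15 and 168 when single pools were left out. The block, for numbers that do not pair the pools, changed no call among these genes. Of the 195 values of the 20 differences with planned statistics under 10 alternatives, 191 kept sign and side of the threshold. Tgm3, Krt16, Ivl, Krt79 and Krt87 were too dim to enter the setting without the dimmer probes. The sign turned when single pools were left out for Krt42 (-0.0167 to 0.541), Sbsn (-0.0159 to 1.31) and Tgm1 (-0.205 to 0.0757). With 2 pools a strain the number of arrays limits the precision, and signal over background is unknown here.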
